A study of Homo sapiens with 6 samples.

Results

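The BTG/TOB genes encode a small family of antiproliferative proteins, of which BTG1, BTG2, BTG3, TOB1 and TOB2 were followed here in glioblastoma (GBM)-derived cells depleted of the RNA-binding protein Musashi1 (MSI1). These 5 genes are rows of a table of 58174 genes, and the family was chosen by the measured FPKM of BTG2, which was higher in the MSI1-depleted cells. KNS42, a line derived from a pediatric GBM, was transfected with a control siRNA (siC, n = 3) or with siRNA against MSI1 (siMSI1, n = 3) and harvested 72 h later for sequencing of polyA RNA. All 6 libraries come from this line in serum-containing medium, and the labels give no genotype difference between the groups. They do not say whether libraries of a group came from separate cultures, so the p-values measure only the spread between these libraries, which may be technical.

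BTG/TOB proteins share an N-terminal domain that binds CNOT7 and CNOT8, the deadenylases that shorten poly(A) tails within the CCR4-NOT complex. The TOB proteins also contact the poly(A)-binding protein PABPC1, and BTG1 and BTG2 bind the arginine methyltransferase PRMT1. In the developing brain, BTG2 (also TIS21 or PC3) marks neural progenitors that leave proliferative divisions for neurogenic ones, and it is a known target of p53.

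Levels are given as FPKM, fragments per kilobase of gene length scaled to library depth, which can be compared between genes. The libraries held 14448513 to 18024080 reads on genes in siC and 13087025 to 14700593 in siMSI1. MSI1 fell from 63.7, 61.9 and 66.9 FPKM in siC to 12.1, 12.3 and 11.2 FPKM in siMSI1 (log2 fold change -2.43, limma adjusted p = 8.7e-06). Of 8 genes typical of other cell types, 6 had a mean under 0.1 FPKM in both groups and AIF1 was at 0 in all 6 libraries, whereas the keratin KRT18 was expressed. The endothelial gene CDH5 had 2, 3 and 0 reads in siC and 9, 11 and 22 reads in siMSI1 (means of 0.0167 and 0.166 FPKM), and PECAM1 had 1, 1 and 0 against 8, 7 and 5 reads. Their part in the differences of the family was not tested. The summed level of these 8 genes was 21.4 to 25.0 FPKM in siC and 18.5 to 22.0 FPKM in siMSI1. Nearly all of this sum was KRT18, with means of 23.1 and 19.4 FPKM, so it hardly reflects the other genes. Among the 15069 genes with a mean of at least 0.5 FPKM, which include all 5 family members, limma called 1655 (11.0%) changed at an adjusted p of 0.01, 776 (5.15%) higher and 879 (5.83%) lower in siMSI1. Between-group ranges did not overlap for 42.8% of these genes, 21.4% higher and 21.5% lower. Of the family, TOB1 and TOB2 rose, BTG1 and BTG3 did not pass the threshold, and BTG2, which chose the family, was not tested.

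BTG2 lies on chromosome 1 (GRCh38, chr1:203305491-203309602, plus strand) and has 2 exons. Its level was 11.1, 10.7 and 10.6 FPKM in siC and 28.6, 30.9 and 33.4 FPKM in siMSI1. All siMSI1 libraries were thus well above all siC libraries, and the siC libraries hardly differed among themselves. The mean went from 10.8 ± 0.238 FPKM (SD, n = 3) to 31.0 ± 2.40 FPKM (SD, n = 3), a 2.87-fold difference that rests on 421 to 534 reads per siC library and 1117 to 1323 reads per siMSI1 library. On the log2(FPKM + 0.1) scale the difference was 1.51, and 113 of the 15069 genes had a larger one. These values chose the family and are given without a test.

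**Figure D1:**
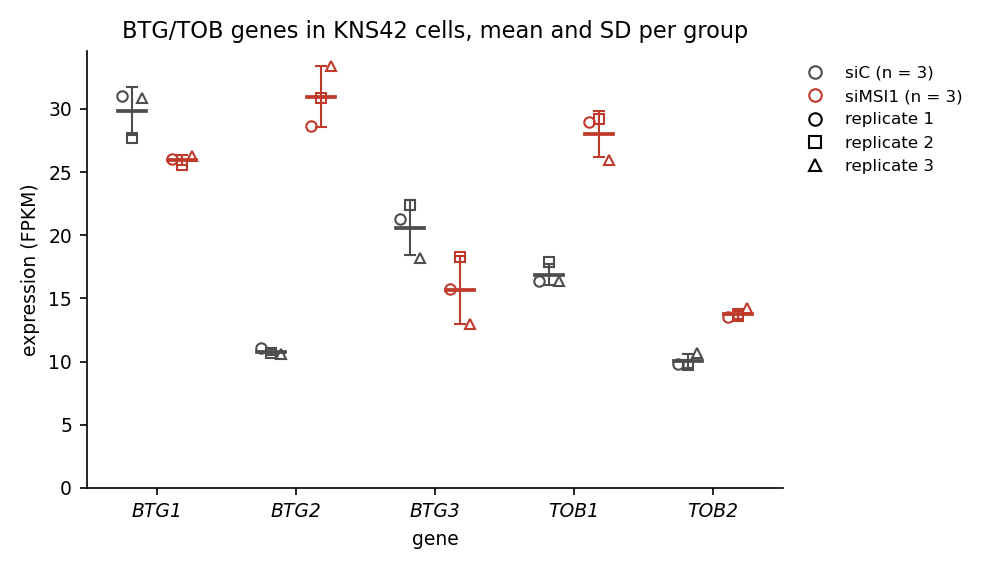
Expression of the 5 BTG/TOB genes by library (y axis, FPKM), with 1 point per siC or siMSI1 library and bars for the mean ± SD (n = 3). The siMSI1 points of BTG2 (28.6 to 33.4 FPKM), TOB1 and TOB2 lie above all their siC points, those of BTG1 lie below, and those of BTG3 overlap.

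TOB1, named for its contact with the receptor ERBB2, is known as a brake on T cell activation and on SMAD signaling. It lies on chromosome 17 (chr17:50862223-50867978, minus strand, 2 exons). Its level was 16.4, 17.8 and 16.4 FPKM in siC and 29.0, 29.2 and 25.9 FPKM in siMSI1. The lowest siMSI1 library was well above the highest siC library. The mean rose 1.66-fold, from 16.9 ± 0.846 to 28.0 ± 1.82 FPKM (SD, n = 3 each), with a log2 fold change of 0.73 (SE 0.0746, 95% interval 0.56 to 0.90) and a limma adjusted p of 0.000718.

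TOB2, the closest relative of TOB1, moved in the same direction by a smaller amount. It lies on chromosome 22 (chr22:41433494-41446801, minus strand, 2 exons). Its level was 9.77, 9.74 and 10.7 FPKM in siC and 13.5, 13.6 and 14.2 FPKM in siMSI1. The groups did not overlap, and the siMSI1 libraries lay within a narrow range. The mean rose 1.37-fold, from 10.1 ± 0.550 to 13.8 ± 0.390 FPKM (SD, n = 3 each), with a log2 fold change of 0.45 (SE 0.0698, 95% interval 0.29 to 0.61) and a limma adjusted p of 0.00371. This call is close to the threshold. The adjusted p was 0.0252 without siC replicate 1, 0.0161 without siC replicate 2, 0.0144 without siMSI1 replicate 1 and 0.0133 without siMSI1 replicate 2.

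BTG1, a gene recurrently mutated in B cell lymphoma and a known FOXO target, was the most abundant member in siC. It lies on chromosome 12 (chr12:92140278-92145846, minus strand, 2 exons). Its level was 31.0, 27.7 and 30.8 FPKM in siC and 26.0, 25.6 and 26.3 FPKM in siMSI1. The siMSI1 libraries all lay below the lowest siC library, by a small margin. The siMSI1 mean, 26.0 ± 0.369 FPKM, was 87.0% of the siC mean of 29.8 ± 1.87 FPKM (SD, n = 3 each). The log2 fold change of -0.20 (SE 0.0677, 95% interval -0.36 to -0.04) did not pass the threshold in limma, with an adjusted p of 0.068.

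BTG3, also named ANA and known to bind E2F1, was the most variable member between libraries of a group. It lies on chromosome 21 (chr21:17593653-17612945, minus strand, 5 exons). Its level was 21.3, 22.4 and 18.2 FPKM in siC and 15.8, 18.3 and 13.0 FPKM in siMSI1. The groups touched, since siMSI1 replicate 2 was marginally above siC replicate 3. The siMSI1 mean, 15.7 ± 2.67 FPKM, was 76.0% of the siC mean of 20.6 ± 2.18 FPKM (SD, n = 3 each). The log2 fold change of -0.40 (SE 0.134, 95% interval -0.71 to -0.09) did not pass in limma, with an adjusted p of 0.063.

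**Figure D2:**
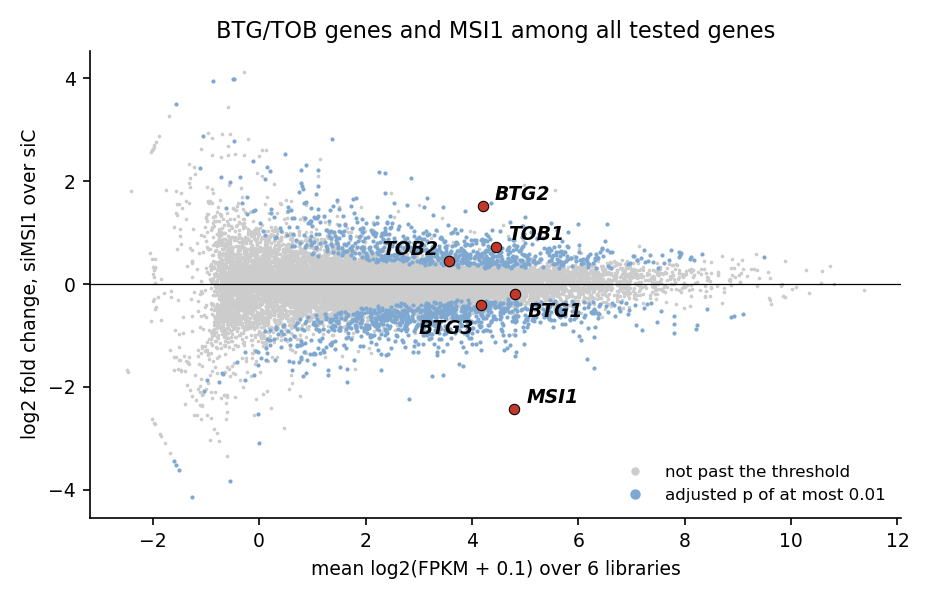
Log2 fold change of siMSI1 over siC (y axis) against mean log2(FPKM + 0.1) over the 6 libraries (x axis) for the 15069 tested genes, with genes at an adjusted p of at most 0.01 in blue and the BTG/TOB genes and MSI1 in red. BTG2 lies at 1.51, TOB1 at 0.73, TOB2 at 0.45, BTG1 at -0.20 and BTG3 at -0.40.

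The order of the members differed between the groups. In siC, the order from high to low was BTG1, BTG3, TOB1, BTG2 and TOB2. Only the ranges of BTG2 and TOB2 overlapped there, while BTG3 and TOB1 were separated by 18.2 against 17.8 FPKM. In siMSI1, BTG2, TOB1 and BTG1 led. The range of TOB1 overlapped those of BTG2 and BTG1, but BTG2 (lowest 28.6 FPKM) lay above BTG1 (highest 26.3 FPKM). BTG3 and TOB2 followed, with overlapping ranges. BTG2 therefore moved from the lower end of the family to its upper end.

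The summed level of the 5 genes was 88.2 ± 1.40 FPKM in siC and 114 ± 2.72 FPKM in siMSI1 (SD, n = 3 each). BTG2 made up 12.2% ± 0.123 of this sum in siC and 27.1% ± 2.24 in siMSI1. BTG1 went the other way, from 33.8% to 22.7%, and BTG3 from 23.4% to 13.7%. TOB1 went from 19.1% to 24.5%, and TOB2 kept a similar share with 11.4% and 12.1%. The net difference in the sum was 26.3 FPKM. It combined 20.2 FPKM from BTG2, 11.2 FPKM from TOB1 and 3.72 FPKM from TOB2 with negative terms. These were -3.88 FPKM for BTG1 and -4.94 FPKM for BTG3. Without BTG2, the sum was 76.1 to 78.4 FPKM in siC and 79.4 to 86.7 FPKM in siMSI1, so the ranges remained apart by a small gap. As the sum includes the gene that chose the family, it was not tested. Cells that hold less RNA and a sample with fewer cells of a type cannot be told apart in such bulk libraries.

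**Figure D3:**
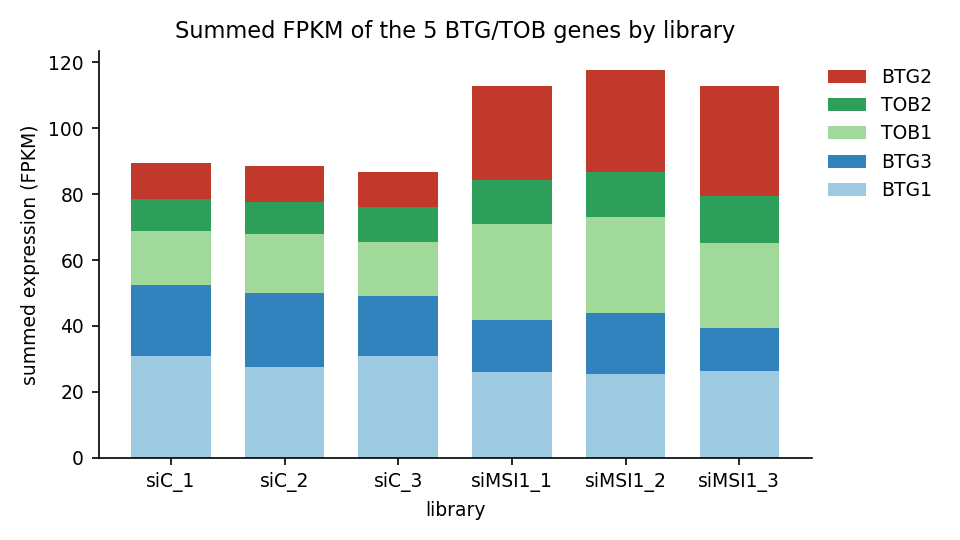
Summed FPKM of the 5 BTG/TOB genes (y axis) in each library (x axis), stacked by gene. The sum was 86.7 to 89.5 FPKM in siC and 113 to 118 FPKM in siMSI1, and the BTG2 segment shows the largest difference between the groups.

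MSI1 binds mRNA mainly in 3′UTRs, where it recognizes UAG-containing words such as GUAG, and the study asked whether it shields transcripts from miRNAs. The canonical 3′UTRs of the members were therefore searched for short words, with 11259 tested protein-coding genes with a 3′UTR as the background (GENCODE 44, GRCh38). Their lengths were 3802 bases in BTG1, 2164 in BTG2, 440 in BTG3, 757 in TOB1 and 2817 in TOB2, against a median of 1356. A match describes the sequence and not binding, which these data do not measure.

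UAG density differed widely between the members. BTG3 had the densest 3′UTR, with 12 UAG (27.3 per kb, percentile 99.8), and BTG1 had 60 (15.8 per kb, percentile 85.2). BTG2 had 24 (11.1 per kb) and TOB2 33 (11.7 per kb), both near the median of 11.2 per kb, and TOB1 had 5 (6.61 per kb, percentile 21.0). GUAG was found 4 times in BTG3, 8 times in BTG2, 15 times in BTG1, 6 times in TOB2 and not at all in TOB1. Per kb this was 9.09 in BTG3 (percentile 99.3), 3.95 in BTG1 (percentile 84.7), 3.70 in BTG2 (percentile 81.2) and 2.13 in TOB2 (percentile 45.7). GUAG is present in 79.7% of the 3′UTRs, and 1.79% of the 448 3′UTRs within 10% of the length of BTG3 hold as many as BTG3. BTG3 and TOB1 also had AU-rich 3′UTRs, with 71.1% and 73.7% A or U against a median of 58.2%. The AU-rich word AUUUA, in 74.3% of the 3′UTRs, occurred 5 times in BTG1, 2 times in BTG2, 3 times in BTG3, 4 times in TOB1 and 3 times in TOB2. Per kb, BTG3 (6.82, percentile 96.5) and TOB1 (5.28, percentile 92.2) had the most. BTG1, BTG2 and TOB2 were at percentiles 41.1, 34.2 and 36.6. The 4 GUAG words of BTG3 are shown because this 3′UTR had the highest GUAG density of the family, with the word in capitals, 5′ to 3′ on the minus strand of chromosome 21 (word at chr21:17594050-17594053, chr21:17594002-17594005, chr21:17593802-17593805 and chr21:17593682-17593685).
BTG3 base 40: uugagaaaaagGUAGaauaaaccuua
BTG3 base 88: ucuuacuaauaGUAGugaaguuagau
BTG3 base 288: acgagaacacuGUAGaaguggacgau
BTG3 base 408: ugugaaaucauGUAGuugcaaauaaa

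Seed matches of 4 miRNAs were searched as complements of bases 2 to 8, or of bases 2 to 7 followed by A. For miR-27b-3p, the words searched were ACUGUGA and CUGUGAA. BTG2 held 2 and BTG1 held 2 such matches, and the other members held none. Among all 3′UTRs, 30.0% had at least 1 match, and 9.03% of the 764 3′UTRs within 10% of the length of BTG2 held 2 or more. For the 635 within 10% of the length of BTG1, this was 19.2%. Near the lengths of BTG3, TOB1 and TOB2, 10.7%, 15.9% and 44.4% of the 3′UTRs held any match. The upstream BTG2 match extended to 8 bases, while the other BTG2 match and both BTG1 matches had 7. The miRNA and the matches are shown because BTG2 and BTG1 alone in the family held them. The seed or its match is in capitals (BTG2 at chr1:203307799-203307806 and chr1:203309270-203309276, plus strand, BTG1 at chr12:92143968-92143974 and chr12:92142057-92142063, minus strand). The miRNA sequences are from RefSeq.
hsa-miR-27b-3p: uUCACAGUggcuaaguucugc
BTG2 base 361: caagguuagcaACUGUGAAcagagaggucg
BTG2 base 1832: uugaaacaaagCUGUGAAucacugcaggc
BTG1 base 106: ccaugucacagCUGUGAAgaucuggcaca
BTG1 base 2017: uuaaaccuauuCUGUGAAaaagcuccucg

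The same pair of genes each held 1 match to miR-21-5p (words AUAAGCU and UAAGCUA), a word present in 14.9% of the 3′UTRs. Near the lengths of BTG2 and BTG1, 18.2% and 27.7% of the 3′UTRs held a match. The BTG2 match lies near the 3′ end of its 3′UTR, at chr1:203309477-203309483, and the BTG1 match at chr12:92142622-92142628. TOB2 held 1 match to miR-143-3p (words UCAUCUC and CAUCUCA, in 24.0% of the 3′UTRs), at chr22:41435626-41435632. Near the length of TOB2, 33.2% of the 3′UTRs held such a match. BTG1 alone held a match to miR-199a-3p (words ACUACUG and CUACUGA, 16.8% of the 3′UTRs) and, with 4 copies, the Pumilio word UGUANAUA (31.3% of the 3′UTRs). Near the length of BTG1, 32.1% of the 3′UTRs held a miR-199a-3p match. The Pumilio word was in 52.1% of them, and 2.83% held at least 4 copies. The paper reports miR-199a as nearly absent in KNS42. BTG3 and TOB1, the members with the shortest 3′UTRs, held no match to any of the 4 miRNAs.
hsa-miR-21-5p: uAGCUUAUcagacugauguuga
BTG2 base 2039: uaguauguuugUAAGCUAuucugacagaa
BTG1 base 1452: auaaaaaucacAUAAGCUggaauucaaca
hsa-miR-143-3p: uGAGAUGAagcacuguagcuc
TOB2 base 679: ugaaacuccuuUCAUCUCuguccuauggc

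**Figure D4:**
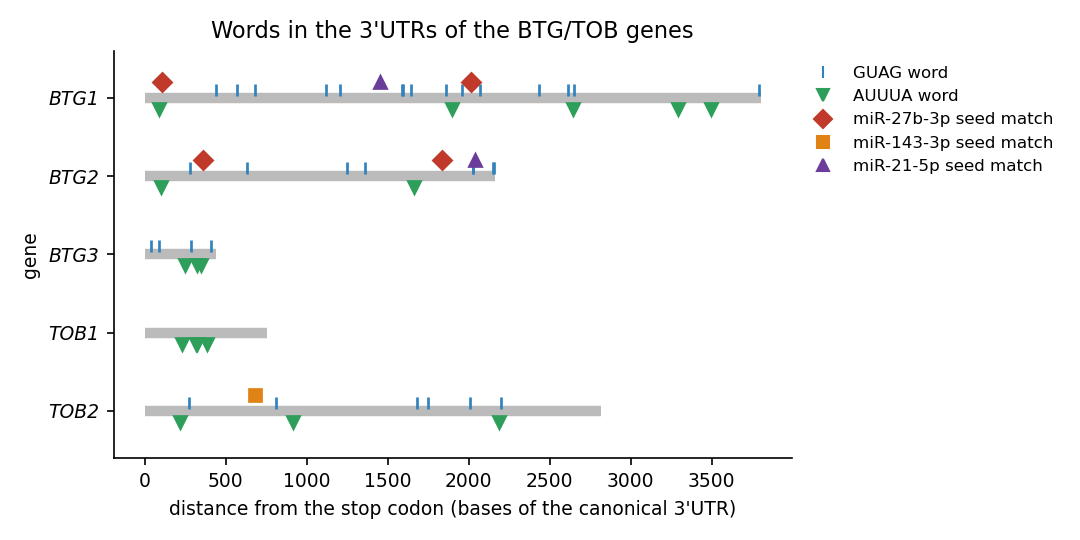
Canonical 3′UTRs of the 5 BTG/TOB genes drawn to scale (x axis, bases from the stop codon), with marks for GUAG, AUUUA and the seed matches of miR-27b-3p, miR-143-3p and miR-21-5p. The miR-27b-3p marks occur in BTG1 and BTG2 only, and GUAG is absent from TOB1.

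The promoters, from 250 bases before to 50 after the start (RefSeq, GRCh38.p14), were searched on both strands for the TATA box TATAAA, the NF-Y word CCAAT, the FOXO word GTAAACA, the shorter word TGACG, the full cAMP response word TGACGTCA, which contains TGACG, and the p53 consensus decamer. BTG2 held CCAAT (position -76 from its start, 35.7% of 27305 promoters hold it) and TGACG (position -210, 25.0%). BTG1 held the FOXO word, which occurs in 3.41% of promoters, on the reverse strand at position -209 and TATAAA, which occurs in 12.0%, at position -33, besides 1 CCAAT and 2 TGACG. No promoter of the family held the p53 decamer (6.54% of promoters) or TGACGTCA (1.98%), and BTG3, TOB1 and TOB2 held none of the 6 words in this window. The BTG2 words and the FOXO word of BTG1, the known FOXO target of the family, are shown in capitals. BTG2 is a known p53 target, but neither of its words is the p53 decamer. The words lie at chr1:203305443-203305447 and chr1:203305309-203305313 for BTG2 (plus strand) and at chr12:92146049-92146055 for BTG1 (minus strand).
BTG2 CCAAT: ggccgcgaCCAATgagcgccg
BTG2 TGACG: cctagcacTGACGacagcgag
BTG1 FOXO word, reverse: ggtttattTGTTTACaagcggat

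Reads of other genes at these loci were few. No gene of the table overlaps BTG2 or TOB2. The TOB2 pseudogene TOB2P1, which could share reads with TOB2, held 3 to 19 reads per library against 668 to 933 reads of TOB2. TOB1.AS1, on the strand opposite to TOB1, had 34 to 46 reads in siC and 33 to 61 reads in siMSI1, against 594 to 814 and 939 to 1077 reads of TOB1. Its log2 fold change was 0.36 with a limma adjusted p of 0.28. Library preparation was strand-specific, but whether counting used the strand is not given in the sources used here. The nearest tested genes on either side of BTG2, FMOD at 31.0 kb and ADORA1 at 138 kb, had log2 fold changes of -0.40 (adjusted p = 0.27) and -0.03 (adjusted p = 0.84). SPAG9, 94.2 kb from TOB1, had 0.04.

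The proteins through which the family acts were examined next. Of 16 genes of the deadenylation machinery, 2 fell, both of the CCR4-NOT complex, and the median log2 fold change was -0.11 (1.46e-05 over all tested genes). CNOT6L, a deadenylase, went from 3.34, 3.66 and 3.28 FPKM to 2.30, 2.21 and 2.25 FPKM (log2 fold change -0.58, limma adjusted p = 0.0053). CNOT9, another subunit, went from 20.4, 21.9 and 20.1 to 14.6, 15.0 and 15.9 FPKM (-0.45, adjusted p = 0.0034). CNOT6 of the same list lay higher in siMSI1 without overlap, from 6.82, 7.85 and 6.09 to 9.78, 10.6 and 8.55 FPKM. It did not pass (0.48, limma adjusted p = 0.023). Log2 fold changes lay above 0 for 3 genes of the list and below 0 for 13. The direct partners did not pass, with -0.15 for CNOT7 (adjusted p = 0.33) and -0.12 for CNOT8 (adjusted p = 0.41). Thus 2 of 16 (12.5%) changed, beside 11.0% of all tested genes and 13.1% of the protein-coding ones. With any library left out, the adjusted p of CNOT6L was 0.0106 to 0.0271, and CNOT9 (0.00341 to 0.0195) passed only without siMSI1 replicate 3.

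Of 8 genes listed as partners of the family (PRMT1, HOXB9, 4 SMAD genes and 2 caprin genes), PRMT1 alone passed. That is 12.5%, beside 11.0% of all tested genes and 13.1% of the protein-coding ones. For PRMT1, there was a rise. Its level was 57.5, 57.1 and 62.0 FPKM in siC and 75.4, 77.0 and 82.8 FPKM in siMSI1, with no overlap. Its log2 fold change was 0.41 (SE 0.0678, limma adjusted p = 0.0047). The list had a median log2 fold change of -0.03. PRMT1 had an adjusted p of 0.0313 without siC replicate 1, 0.0216 without siC replicate 2, 0.0118 without siC replicate 3 or without siMSI1 replicate 1, and 0.0148 without siMSI1 replicate 2.

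Genes that share known regulators with members moved in part. Of 21 tested p53 targets, 5 rose (23.8%, beside 5.15% of all tested genes), 16 did not pass and the median was 0.24. BBC3, which encodes the pro-apoptotic protein PUMA, had 0.714, 0.626 and 0.503 FPKM in siC and 1.79, 1.66 and 2.102 FPKM in siMSI1 (log2 fold change 1.45, adjusted p = 0.0019). CDKN1A, the CDK inhibitor p21, went from 4.42, 2.81 and 3.33 to 7.32, 7.43 and 7.53 FPKM (1.08, adjusted p = 0.0025). Both were well below BTG2 in level. Without siMSI1 replicate 1, 2 of the list passed, and BBC3 (0.0101) and CDKN1A (0.0111) narrowly missed the threshold. CDKN1A also missed it without siC replicate 3 (0.0113) or siMSI1 replicate 2 (0.0110).

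Of 14 FOXO targets, 6 rose, 1 fell and 7 did not pass, with a median of 0.08. Beside them, 5.15% of all tested genes rose and 5.83% fell. PIK3IP1, a negative regulator of PI3K, had 0.491, 0.378 and 0.621 FPKM in siC and 3.19, 3.13 and 3.51 FPKM in siMSI1 (2.52, adjusted p = 0.00027). Its siC mean of 0.497 FPKM was under the filter of 0.5, so it was kept because of its level in siMSI1. Without the filter its adjusted p was 0.0018, and its log2 fold change was 1.52 with an added value of 1 and 2.72 with 0.01. CITED2, a transcriptional regulator that binds CBP and p300, went from 21.7, 19.8 and 20.8 to 30.3, 29.3 and 34.2 FPKM (0.59, adjusted p = 0.0021), whereas TXNIP, an inhibitor of thioredoxin, fell from 17.4, 18.1 and 17.6 to 10.3, 12.8 and 11.6 FPKM (-0.62, adjusted p = 0.0027). The known FOXO target of the family, BTG1, did not pass. TXNIP lost its call when any siC library was left out (adjusted p = 0.0113 to 0.0148), and CITED2 without siC replicate 1 (0.0104) or siC replicate 3 (0.0101). The count of changed FOXO targets was 1 without siC replicate 1, 2 without siC replicate 3, 3 without siC replicate 2, 3 without siMSI1 replicate 1 and 4 without siMSI1 replicate 2.

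BTG2 is also an immediate-early gene, induced by growth factors. Of 20 tested genes of this class, 1 rose, 2 fell and the median was 0.10. This was 15.0% changed, beside 11.0% of all tested genes and 13.1% of the protein-coding ones. FOSL1, an AP-1 subunit, rose from 11.5, 10.9 and 13.1 to 37.9, 32.8 and 36.4 FPKM (1.59, adjusted p = 0.00021). JUND, another AP-1 subunit, fell by 0.77 on the log2 scale (adjusted p = 0.0094), and MCL1, an anti-apoptotic BCL2 relative, fell by 0.57 (adjusted p = 0.0010). JUND lost its call without siC replicate 1 (adjusted p = 0.0349), siC replicate 3 (0.0277), siMSI1 replicate 1 (0.0358) or siMSI1 replicate 2 (0.0295).

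BTG/TOB proteins are known to restrain the passage from G1 to S phase, for which cyclins, CDKs and E2F1 are required. The list of G1 genes held such genes and also RB1, which is not of that kind (-0.25, limma adjusted p = 0.11). Of 9 tested genes of this list, 3 fell (33.3%, beside 5.83% of all tested genes), 6 did not pass and the median log2 fold change was -0.37. CCNE1, cyclin E1, went from 5.26, 5.66 and 4.96 to 3.35, 2.36 and 2.62 FPKM (-0.92, adjusted p = 0.0032), and E2F1 from 39.6, 33.4 and 41.2 to 19.7, 18.6 and 23.1 FPKM (-0.89, adjusted p = 0.0014). The call of CCNE1 was lost when any siC library was left out (adjusted p = 0.0106 to 0.0167) or without siMSI1 replicate 2 (0.0103), and the list count was 1 in these 4 fits. CCND1, cyclin D1, was too low to be tested, with 22 to 29 reads per library. Whether any BTG/TOB gene acts on these genes was not tested.

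**Figure D5:**
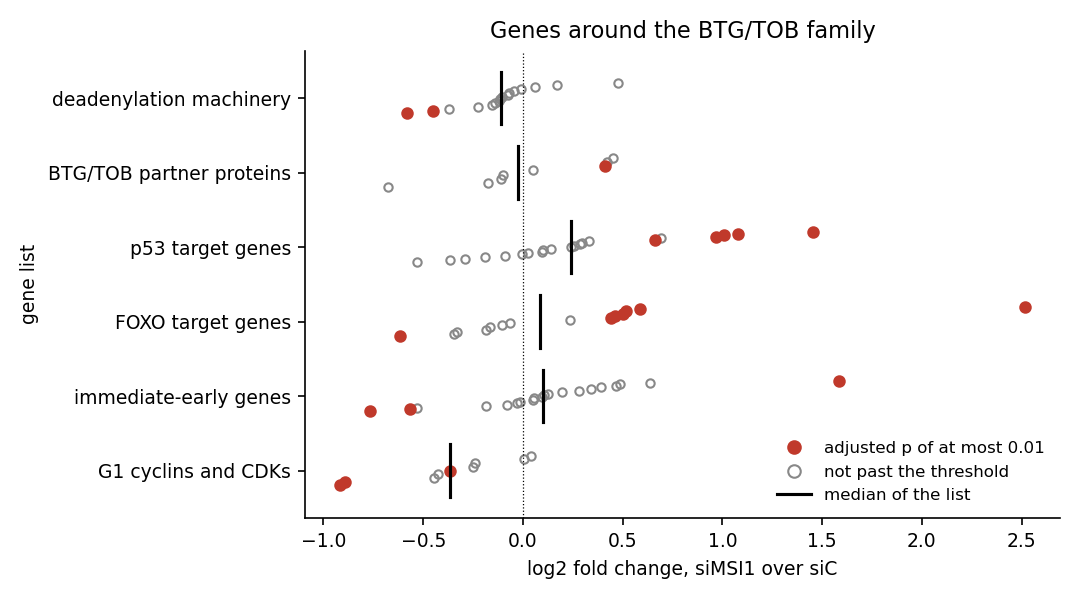
Log2 fold change of siMSI1 over siC (x axis) for each tested gene of the 6 gene lists (y axis), with 1 point per gene, filled where the adjusted p was at most 0.01, and a vertical bar for the median of the list. The medians of the lists ran from -0.37 for G1 cyclins and CDKs to 0.24 for p53 targets.

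The genes most like BTG2 were sought among 10572 protein-coding genes with a mean of at least 1 FPKM, as those with the smallest Euclidean distance of centred log2(FPKM + 0.1) over the 6 libraries. DDIT4, an inhibitor of mTORC1 signaling, was nearest, with 6.44 FPKM in siC and 18.6 FPKM in siMSI1. It was followed by IER5L (5.03 and 14.4 FPKM), GFPT2 (8.90 and 23.9 FPKM), an enzyme of the hexosamine pathway, the transporter gene SLC47A2 (1.78 and 4.61 FPKM) and GBP2 (3.25 and 9.84 FPKM), an interferon-inducible GTPase. Their correlations with BTG2 were r = 0.989 to 0.997 over 6 libraries that form 2 groups, so they mostly reflect the shared group difference. Within the family, TOB1 was nearest to BTG2 at rank 230, before TOB2 at 767, BTG1 at 7602 and BTG3 at 9402.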

How the data were processed

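PolyA RNA of 6 KNS42 libraries was sequenced. Per the labels and the methods of the study, the authors trimmed reads with cutadapt 1.14, aligned them to hg38 with HISAT2 2.1.0 (SAMtools 1.5), counted them per gene with featureCounts 1.5.3 and deposited FPKM for each gene and library. The deposited table also holds the authors' log2 fold changes, p-values and false discovery rates from edgeR 3.18.1, which were not used, and gene lengths.

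FPKM times length gave whole reads for 100% of values (tolerance 0.01), which showed the depth; the lowest total was 13087025 and the highest 18024080 reads. A floor of 3 reads at 2 kb was 0.0829 to 0.114 FPKM and covers counting error only. No libraries of a group were duplicates.

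limma 3.58.1 (R 4.3.3; lmFit, eBayes with trend and robust, two-sided, no block) was run after log2(FPKM + 0.1) and a filter that kept genes averaging 0.5 FPKM or more. Fold changes on this scale understate those of low genes. The Benjamini-Hochberg adjustment covered all 15069 genes, with a threshold of 0.01. Other added values, filters, scalings, moderation, a block, voom on the recovered reads and leaving out each library were tried. On simulated data, the fit called 2 of 81 genes changed 1.5-fold (2.47%), 42 of 57 changed 2-fold (73.7%) and 57 of 62 changed 3-fold (91.9%). Fewer genes were changed there than were called in the data, so these shares need not carry over. A gene that did not pass is therefore not shown to be unchanged.

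Words were searched in canonical 3′UTRs of GENCODE 44 and in RefSeq promoters; 57392 gene identifiers (98.7%) and all 5 promoters matched. Named genes were the members, MSI1, relatives and neighbours, CNOT7, CNOT8, PRMT1, CCND1, CDKN1A, the 5 genes most like BTG2 and, per list, up to 2 of the largest rises and falls past the threshold. CNOT6 and RB1 were named in addition. The members and lists were chosen with earlier results of these data known.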

Additional observations from a re-analysis of the deposited data

How the results depend on the processing

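Of 16 alternatives, 10 used all libraries. BTG2 stayed between 1.44 and 1.57 on the log2 scale. TOB1 (0.70 to 0.78, adjusted p 4.36e-05 to 0.00637) passed in all 16, BTG1 (-0.25 to -0.17, 0.033 to 0.235) in none, and TOB2 (0.42 to 0.49, 0.000813 to 0.0252) in 10. TOB2 kept 0.45 but had an adjusted p of 0.0116 with no filter on low genes and 0.0129 with moderation without trend and robust, and ranged from 0.43 to 0.49 with a library left out. BTG3 was -0.52 to -0.27 with a library left out.

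The number of changed genes was 792 with no filter, 847 with plain moderation, 2690 with voom, 3787 at an adjusted p of 0.05 and 517 to 1603 with a library left out (lowest without siC replicate 1). With no filter, changed genes numbered 0 for deadenylation, 0 for partners, 4 for FOXO targets and 1 for G1 genes. With plain moderation they numbered 1, 0, 3 and 1. At 0.05 they were 4 for deadenylation, 4 for partners, 5 for G1 genes, 7 for immediate-early genes and 9 for p53 targets. Partners numbered 2 under median centring, quantile scaling or a mean FPKM of at least 1, and 3 with voom, which gave 6 immediate-early genes. With a library left out, the counts were 0 to 1 for deadenylation, 0 to 1 for partners, 2 to 5 for p53 targets, 1 to 6 for FOXO targets, 2 to 3 for immediate-early genes and 1 to 4 for G1 genes. Where limma called 0, 4 to 6 deadenylation genes and 4 to 5 partners had an unadjusted p under 0.05.

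Whether replicate numbers pair the libraries is not settled. Deviations of same-numbered libraries correlated at -0.0661, 0.0783 and 0.0830, and not every library correlated best with its own number. With 3 libraries per group, these correlations cannot decide it. With the numbers as a block, 2250 genes, 3 partners and 5 immediate-early genes changed, and BTG3 passed (-0.40, adjusted p = 0.0055). Among neighbours near 0, leaving out a library turned the sign, with ranges of -0.137 to 0.0307 for ADORA1 and -0.0162 to 0.146 for SPAG9. Genes under about 0.1 FPKM, the floor of 3 reads, cannot be compared at this depth.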

Other observations

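The remaining relatives of the family were near the limit of detection. BTG4, which is known from oocytes, had 0 to 1 reads in siC and 0 to 2 reads in siMSI1, at or under the floor of 3 reads, and was not detectable at this depth. The pseudogenes BTG1P1, BTG3P1 and BTG4P1 were at 0 reads in all 6 libraries. The pseudogene TOB2P1 had 5, 10 and 3 reads in siC and 19, 10 and 10 reads in siMSI1, with a log2 fold change of 1.15 (SE 0.390) that did not pass in limma (adjusted p = 0.066). Its siC mean of 0.368 FPKM was under the filter of 0.5, so it was kept because of its siMSI1 mean of 0.923 FPKM. Reads shared between TOB2 and TOB2P1 could be counted for either gene.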
